A study of Mus musculus with 3 samples.

Results

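Cluster 3 is one of the numbered groups of nuclei in the deposited table of a single-nucleus ATAC-seq (snATAC-seq) series from mouse embryos, and its members were taken by that number alone. It held 208 of the 1879 nuclei, of which 25 of 153 came from E12.5, 133 of 970 from E13.5 and 50 of 756 from E15.5, where E gives the day of embryonic development. These were 16.3% (exact 95% binomial interval 10.9 to 23.2%), 13.7% (11.6 to 16.04%) and 6.61% (4.95 to 8.63%) of the nuclei of each library. The intervals cover counting error only. Every nucleus came from wild-type (WT) embryos of the strain C57BL/6JRj. There was a single library per stage, made from nuclei of frozen sections that were stained with 7-AAD, sorted and barcoded in droplets. The libraries held 9402554, 87687839 and 53120243 unique fragments, from the youngest stage to the oldest, and that order is kept throughout when values are given for the 3 libraries. Stage and library cannot be told apart, and the SD over the 3 libraries given below is therefore a spread over stages.

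Cluster 3 was set beside 2 other groups. The first was cluster 1, with 10, 125 and 120 nuclei, which carries the mesenchyme markers of the series. The second was made of nuclei of like depth, in which a nucleus of any cluster other than 2, 3 and 4 was paired with 1 cluster 3 nucleus of the same library and of nearly the same fragment total. Pairs were found for 22, 133 and 50 cluster 3 nuclei. The nuclei of like depth included 2, 22 and 12 nuclei of cluster 1, so the groups are not separate. No p-value is given, because the clusters were drawn from the same fragments and 3 paired libraries cannot give a two-sided exact permutation p below 0.25. Libraries E13.5 and E15.5 shared 1 nuclear barcode and the other pairs of libraries 0, and 0 of the shared barcodes were in cluster 3. Some barcodes of a library shared at least 10% of their fragments with another, and such linked barcodes may stand for the same nucleus. They numbered 0, 5 and 0 in cluster 3, 0, 1 and 3 in nuclei of like depth and 0, 3 and 9 in cluster 1. With 1 barcode kept per linked group, cluster 3 had 25, 129 and 50 nuclei, nuclei of like depth 22, 133 and 48, and cluster 1 10, 123 and 112.

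In ATAC-seq the transposase Tn5 cuts and tags DNA where nucleosomes leave it accessible, so fragments pile up at promoters and enhancers and are sparse over compact chromatin. Embryonic mesenchyme is the loose connective tissue that gives rise to bone, cartilage, dermis and stroma. Runx2 encodes a factor needed for bone formation, Twist2 and Prrx1 encode factors of limb, craniofacial and dermal mesenchyme, and Pdgfra encodes a receptor for platelet-derived growth factor on mesenchymal cells. Olfactory and vomeronasal receptor genes lie in large gene arrays that are silent outside sensory neurons of the nose, and ribosomal protein genes have promoters that are open in nearly every cell.

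The sequences of 3 regions that marked cluster 1 and also held many cluster 3 insertions are shown first, since the results turn on such regions. They are stretches of 200 bases within 500 bp regions in mm10 coordinates, read from the reference. They were chosen after their values were seen, as regions outside promoters and exons among those with the most cluster 3 insertions. Capitals mark a TWIST-type E-box (CATCTG or its reverse complement), which was found in the region near Edn3 alone.
Region 7012 bp from the Serpinh1 start, chr7:99360265-99360464, plus strand: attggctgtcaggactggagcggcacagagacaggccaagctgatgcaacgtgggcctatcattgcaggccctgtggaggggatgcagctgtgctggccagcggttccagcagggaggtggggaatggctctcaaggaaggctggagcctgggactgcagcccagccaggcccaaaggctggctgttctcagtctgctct
Region 98132 bp from the Edn3 start, chr2:174858622-174858821, plus strand: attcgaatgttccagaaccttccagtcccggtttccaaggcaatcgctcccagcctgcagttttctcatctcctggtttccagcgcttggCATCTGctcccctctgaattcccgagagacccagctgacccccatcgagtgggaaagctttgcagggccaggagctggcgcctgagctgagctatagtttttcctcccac
Region 7083 bp from the Col6a1 start, chr10:76733301-76733500, plus strand: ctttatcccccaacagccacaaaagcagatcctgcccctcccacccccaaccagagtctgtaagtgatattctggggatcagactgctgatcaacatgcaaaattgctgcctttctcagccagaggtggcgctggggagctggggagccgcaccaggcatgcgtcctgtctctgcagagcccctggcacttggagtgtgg
The regions near Serpinh1, Edn3 and Col6a1 are intergenic. Serpinh1 encodes a collagen chaperone, Edn3 a ligand of endothelin receptors and Col6a1 a chain of type VI collagen.

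Among clusters with at least 10 nuclei in a library, cluster 3 was the deepest by median. Clusters 2 and 4 aside, it also had the lowest median share of fragments at promoters. Their median fragment totals were 132132, 104625 and 99142.5, ranked deepest of 7, 12 and 11 clusters with at least 10 nuclei. Median depth in cluster 1 was 60804.5, 64094 and 48173.5. The promoter share is the percentage of a nucleus's fragments that overlap the window from 1000 bp upstream to 100 bp downstream of a protein-coding transcription start site (TSS). Its cluster 3 medians were 7.03, 6.55 and 6.04%. Among clusters with at least 10 nuclei, that was the lowest at E12.5 and E15.5, and at E13.5 clusters 2 and 4 were lower, with 5.19 and 4.39%. Without clusters 2 and 4 it was lowest in each library.

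The median promoter share was lower in cluster 3 than in nuclei of like depth in each library, though single nuclei overlapped. At E13.5 the lowest nucleus of like depth had 3.68% and the lowest cluster 3 nucleus 3.81%. Cluster 0 at E12.5, with a median depth of 112927, had a median of 7.77%. Nuclei of like depth had medians of 8.07, 9.87 and 8.99%. Matched cluster 3 nuclei differed from them by −0.777, −3.32 and −2.95 percentage points (mean −2.35 ± 1.37, SD, n = 3 libraries). In E12.5 this difference was the smallest, and 20 of 25 cluster 3 nuclei lay below the median of the like-depth nuclei. The same was so for 124 of 133 nuclei at E13.5 and 42 of 50 at E15.5. Cluster 1 had medians of 11.5, 12.02 and 15.04%, which put cluster 3 lower by a mean difference of −6.32 ± 2.37 points. All 25 cluster 3 nuclei at E12.5 lay below the lowest cluster 1 nucleus, against 89 of 133 at E13.5 and 13 of 50 at E15.5. With 1 barcode per linked group these were 25 of 25, 85 of 129 and 25 of 50, so the E15.5 count rested on linked cluster 1 barcodes. Enrichment of fragments at the TSS over its flanks had cluster 3 medians of 7.78, 7.85 and 7.91, which differed from nuclei of like depth by −3.69 ± 2.43 and from cluster 1 by −11.4 ± 4.85. The share of fragments in the peaks of the authors' pipeline was lower too, by a mean difference of −5.20 ± 3.09 points from nuclei of like depth and −11.7 ± 5.19 points from cluster 1.

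**Figure D1:**
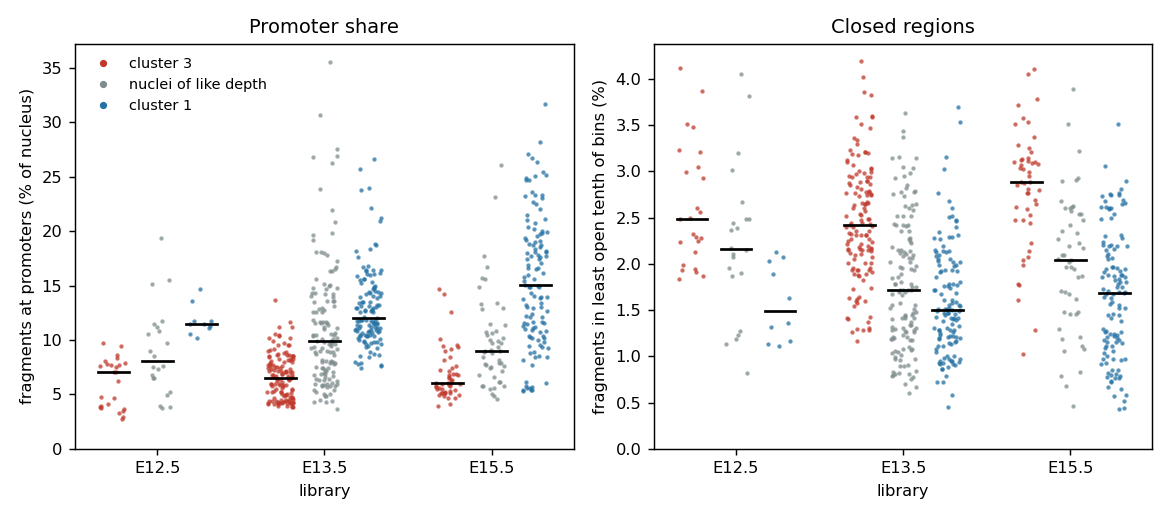
Each point is 1 nucleus, by library, with cluster 3 in red, nuclei of like depth in grey and cluster 1 in blue, and black bars mark medians. The left panel gives the percentage of fragments at promoters and the right panel the percentage in the least open of 10 groups of 10 kb bins. Cluster 3 medians are 7.03, 6.55 and 6.04% on the left, below both other groups in each library, and 2.48, 2.42 and 2.89% on the right, above both.

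Stretches of the genome covered by at least 3 fragments of a nucleus, which a single diploid nucleus gives rarely, had cluster 3 medians of 286, 244 and 219. Matched cluster 3 nuclei had fewer of them than nuclei of like depth in each library (mean difference −80.2 ± 50.3). Cluster 3 had more such stretches than the shallower cluster 1 (68.7 ± 43.1). The duplicate share of read pairs was lower in cluster 3 than in cluster 1, with differences of −15.8, −5.64 and −7.00 points, and differed from nuclei of like depth by −1.89 ± 0.519 points. No doublet caller was run here, and the labels and methods read here state no removal of doublets. The part of doublets, overlapping fragments and duplicates in the results was not tested.

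Closed chromatin held a larger share of cluster 3 fragments than of either other group. The genome was divided into 10 kb bins, and 238086 autosomal bins were ranked by their fragments in nuclei that entered neither comparison, outside clusters 2 and 4, and divided into 10 groups of equal size. In the least open group, the cluster 3 medians per nucleus were 2.48, 2.42 and 2.89% of fragments, against 2.16, 1.71 and 2.04% in nuclei of like depth and 1.495, 1.497 and 1.69% in cluster 1. Cluster 2, outside both groups, had 2.67, 2.57 and 2.50%, cluster 4 had 2.42, 2.30 and 2.84%, and cluster 0 had 2.45% at E12.5. Above the median of nuclei of like depth lay 18 of 25, 116 of 133 and 43 of 50 cluster 3 nuclei, and above that of cluster 1 25 of 25, 123 of 133 and 47 of 50. Summed over nuclei, the log2 ratio of cluster 3 over nuclei of like depth in this group was 0.16, 0.34 and 0.44 (mean 0.31 ± 0.14, a fold of 1.24). Over cluster 1 it was 0.77, 0.58 and 0.66 (mean 0.67 ± 0.09, a fold of 1.59). In the most open group the means were −0.25 ± 0.05 over nuclei of like depth and −0.41 ± 0.05 over cluster 1. Between these ends the mean ratio was lower in each group of bins than in the one before, in both comparisons.

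**Figure D2:**
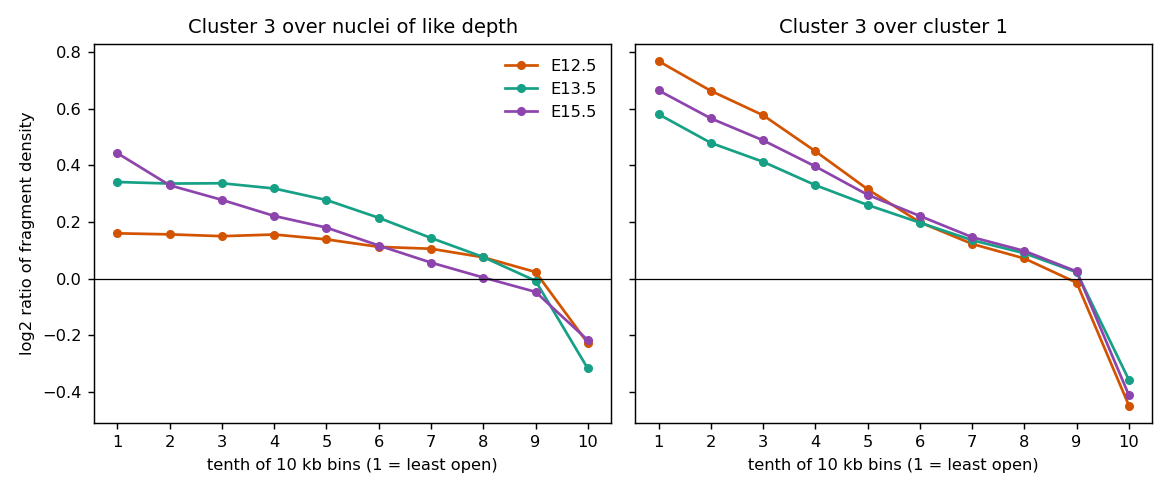
The vertical axis gives the log2 ratio of fragment density in cluster 3 over nuclei of like depth (left) and over cluster 1 (right), and the horizontal axis gives the 10 groups of 10 kb bins from the least to the most open, with 1 line per library. In the least open group the lines stand at 0.16 to 0.44 on the left and 0.58 to 0.77 on the right, and in the most open group every line is below 0.

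Base composition differed along the same order, as mean GC content was 39.5% in the least open group and 48.4% in the most open one, and repeat-masked sequence made up 60.5% and 23.4%. When the least open bins were split at their median GC content, the mean log2 ratio over nuclei of like depth was 0.30 in bins with less GC and 0.34 in bins with more, and over cluster 1 it was 0.66 and 0.68. A split at the median repeat-masked share gave 0.31 and 0.31 over nuclei of like depth, and 0.67 and 0.67 over cluster 1.

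By 1 Mb windows, the highest ratios included windows of chromosome 7 with vomeronasal receptor genes. The highest mean ratio over nuclei of like depth was in chr7:23000001-24000000, where 18 of 24 genes are vomeronasal receptors, with log2 ratios of 0.63, 0.39 and 1.47 (mean 0.83 ± 0.57). The same window reached 1.99, 1.06 and 1.06 over cluster 1. The highest over cluster 1 was chr7:11000001-12000000, with 5 vomeronasal receptors among 12 genes and log2 ratios of 3.43, 1.00 and 1.30. It was followed by chr4:112000001-113000000, whose centre lies 57193 bp from Skint2, a member of the Skint genes of the skin immune system, with 2.54, 1.00 and 0.80. Windows of chromosome 7 with centres near Vmn2r45 and Nlrp4a had means of 1.27 ± 0.75 and 1.26 ± 0.33. Against nuclei of like depth, the next 3 windows held 0 to 2 protein-coding genes each, and genes of other types were not counted in any window. First came chr12:19000001-20000000 with 1 such gene and 1.70, 0.04 and 0.67, and then chr15:33000001-34000000 with 2 and 0.91, 0.64 and 0.70. Last came chr12:114000001-115000000 with 0 protein-coding genes and 0.84, 0.17 and 1.21. The centre of the last lies 953535 bp from Adam6a, the nearest protein-coding gene. The fifth, chr1:163000001-164000000, holds Prrx1 among 8 genes and had log2 ratios of 0.67, 0.63 and 0.79, the smallest spread of these 5 windows.

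Named by the gene nearest to their centre, the lowest windows over nuclei of like depth were chr14:75000001-76000000 at Siah3 with a mean of −0.55 ± 0.15, and windows at Aatf (−0.49 ± 0.28), Mef2c (−0.48 ± 0.36), Gm11273 (−0.47 ± 0.26) and Nars (−0.45 ± 0.22). The window at Gm11273, chr13:21000001-22000000, holds 13 olfactory receptors among 47 genes. Over cluster 1 the lowest was chr9:106000001-107000000 at Iqcf1, with 29 genes and a mean of −0.56 ± 0.29, and chr7:127000001-128000000 at Fbrs held 57 genes and had −0.51 ± 0.16. Windows at Olfr1348, Rap2a and Smoc2 had −0.52 ± 0.32, −0.50 ± 0.29 and −0.50 ± 0.27. The one at Olfr1348, chr7:6000001-7000000, holds 8 olfactory receptors among 26 genes, so windows with receptor genes lay at both ends of the order. The ratio of the receptor genes within a window was not counted.

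Regions that marked cluster 1 took more of the cluster 3 insertions in open chromatin than of those in nuclei of like depth, and fewer than in cluster 1. For this, 500 regions of 500 bp were chosen for each of 9 other clusters at E13.5, by their fold over the rest, in nuclei outside clusters 2, 3 and 4. Nuclei of like depth came from these clusters and at E13.5 took part in the choice, while cluster 3 took no part. Regions of cluster 1 took 0.721, 0.744 and 0.657% of the cluster 3 insertions in open regions, against 0.316, 0.312 and 0.413% in nuclei of like depth and 1.09, 1.26 and 1.19% in cluster 1. In each library all cluster 3 nuclei lay above the median of the like-depth nuclei, which was 25 of 25, 133 of 133 and 50 of 50. Below the cluster 1 median lay 22 of 25, 132 of 133 and 49 of 50. When each nucleus was assigned to the set in which it stood highest relative to that set's own cluster, 191 of 208 cluster 3 nuclei (91.8%) fell to the cluster 1 set. By library these were 22 of 25, 125 of 133 and 44 of 50, and among nuclei of like depth 2 of 22, 22 of 133 and 13 of 50. The nuclei of like depth belong to the clusters that defined the sets, and 2, 22 and 12 of them were cluster 1 nuclei. Their counts in the cluster 1 set therefore mostly reflect the make-up of that group. The remaining cluster 3 nuclei went to the sets of cluster 8 (7), cluster 0 (5), cluster 7 (4) and cluster 11 (1). The set of cluster 7 was also above nuclei of like depth, with 0.311, 0.316 and 0.337% in matched cluster 3 nuclei against 0.281, 0.226 and 0.256%. Those of clusters 0, 5, 6 and 9 were below in each library, and those of clusters 8, 10 and 11 differed in direction. Compared with cluster 1, cluster 3 took more in the sets of clusters 0, 5, 6, 8, 9, 10 and 11 in each library.

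**Figure D3:**
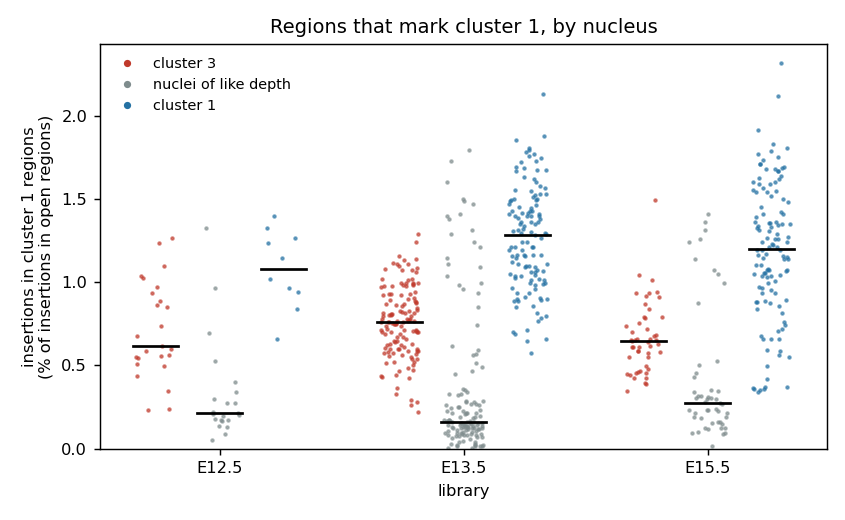
Each point is 1 nucleus, and the vertical axis gives the percentage of its insertions in open regions that fell in the 500 regions marking cluster 1, for cluster 3 (red), nuclei of like depth (grey) and cluster 1 (blue). Black bars are medians. The cluster 3 medians of 0.616, 0.761 and 0.646% lie between those of nuclei of like depth, at 0.212, 0.163 and 0.278%, and of cluster 1, at 1.08, 1.28 and 1.20%. The grey points that overlap the blue ones include the cluster 1 nuclei among the nuclei of like depth.

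Since E13.5 nuclei of cluster 1 and of the other clusters took part in the choice, single regions were counted over E12.5 and E15.5 only. The regions were chosen as higher in cluster 1 than in the clusters behind most nuclei of like depth. That favours a higher value in cluster 3 than in those nuclei, also at E12.5 and E15.5. There, 445 of the 500 regions (89.0%) were higher in cluster 3 than in nuclei of like depth, where 50.8% of 100000 open regions were. Below cluster 1 were 452 of 500 (90.4%), where 37.1% of all open regions were. Only 35 of the 500 regions overlapped a promoter window. The region near Serpinh1 held 46, 210 and 82 cluster 3 insertions, 40, 144 and 93 in nuclei of like depth and 34, 307 and 400 in cluster 1, which gave scaled log2 ratios, with the matched nuclei in the first comparison, of 0.32, 1.12 and 0.17 over nuclei of like depth and −1.26, −0.63 and −1.24 over cluster 1. The region near Edn3 stood at 1.495, 1.08 and 1.17 over nuclei of like depth and −0.35, −0.60 and −0.20 over cluster 1. For the region near Col6a1 the values were 0.07, 1.63 and 1.35, and −1.65, −0.56 and −0.65. These 3 regions were chosen by hand and do not stand for the set. In each of the 3 libraries, 327 of the 500 regions were above nuclei of like depth (16.4% of all open regions were) and 288 were below cluster 1 (11009 of the 100000 were), and E13.5 took part in the choice of the 500.

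Motif letters in the cluster 1 regions gave a description of their sequence. The TWIST-type E-box CATCTG was in 265 of the 500 regions (53.0%) and in 31.4% of all open regions, on either strand. TEAD letters (ACATTCC) were in 11.6 and 6.19%, AP-1 letters (TGANTCA) in 15.2 and 11.3%, RUNX letters (TGTGGT) in 31.6 and 28.0%, and SP/KLF letters (GGGCGG) in 25.2 and 36.3%. Mean GC content was 51.7% in the cluster 1 regions and 54.5% in all open regions.

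Genes were then compared through the fragments over each gene body with 2000 bp upstream, as CPM, the count scaled by all fragments of the group in genes, so that the ratios are relative to the other genes. A gene was called higher or lower when it differed at least 1.5-fold the same way in each library, among genes with a mean of at least 20 fragments. Against nuclei of like depth, 129 of 17742 genes (0.727%) were higher and 82 (0.462%) lower. The call is a rule of size and not a test. A gene could reach the mean of 20 fragments through its higher group alone, and then had to differ. With a mean under 20 in the other group were 21 of the 129 higher and 5 of the 82 lower genes here, and 126 of 490 and 0 of 355 of those called over cluster 1 below. Foxl1, a forkhead factor of gut mesenchyme, was among the highest 10 and stood at 15.6, 17.4 and 24.8 CPM in cluster 3 and 4.10, 5.99 and 7.27 CPM in nuclei of like depth (mean log2 ratio 1.74 ± 0.19, n = 3 libraries). Foxf1, its neighbour on chromosome 8 and a factor of visceral mesenchyme, was also called and had 21.6, 30.8 and 38.3 CPM against 12.3, 16.2 and 20.1 CPM (0.89 ± 0.07). Neither gene overlapped between the groups, which the choice of called genes favours, and the share of all genes without overlap was not counted.

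Genes of the extracellular matrix were also among the called. Lum, which encodes the collagen-binding proteoglycan lumican, had 13, 106 and 50 fragments in cluster 3 and 3, 42 and 26 in nuclei of like depth (mean log2 ratio 1.55 ± 0.53). Its E12.5 ratio of 4.29 has a counting interval of 1.18 to 23.4. Col6a1 and Col6a2, neighbours that encode chains of type VI collagen, had mean log2 ratios of 1.00 ± 0.51 and 0.96 ± 0.30. Adamts2, which encodes a procollagen protease, stood at 280, 328 and 328 CPM against 113, 184 and 205 CPM (0.94 ± 0.33). Col3a1, encoding type III collagen, was at 42.6, 48.1 and 44.0 CPM against 23.3, 25.9 and 27.4 CPM (0.82 ± 0.12).

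The 4 marker genes given for the cluster were not called by this rule, because each missed 1.5-fold in at least 1 library. Runx2 stood at 369, 383 and 372 CPM against 265, 259 and 266 CPM in nuclei of like depth, a mean log2 ratio of 0.51 ± 0.05. Its groups did not overlap, and the share of all genes without overlap was not counted. Twist2 had log2 ratios of 1.02, 0.89 and 0.46, Prrx1 0.44, 0.89 and 0.75, and Pdgfra 0.04, 1.02 and 0.34. The smallest of these ratios, that of Pdgfra at E12.5, rests on 181 fragments against 174. These genes were given as markers of the cluster, so their direction is a description only. At promoters alone the mean log2 ratios of Runx2, Twist2, Prrx1 and Pdgfra were 0.39, 1.77, 1.41 and 1.30.

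Lists of mesenchymal genes lay above nuclei of like depth as groups. For all 17742 genes the median of the mean log2 ratio was −0.03, and 16.4% were above 0 in each library. Of all genes 0.727% were called higher and 0.462% lower. Of the 8 mesenchyme markers 7 were above 0 in each library, with a median of 0.55, and 1, Col3a1, was called. The 4 given markers are among these 8, and without them 3 of 4 were above 0 in each library. Matrix genes had a median of 0.52, with 16 of 23 above 0 in each library and 4 called. Mesenchyme transcription factors had a median of 0.39, with 18 of 30 above 0 in each library and Foxf1 alone called. Ligands and receptors of mesenchymal signalling had a median of 0.38, with 15 of 19 above 0 in each library and 0 called. Hox genes, the clustered factors of body position, had a median of 0.52 and 22 of 39 above 0 in each library, and Hoxb2 was called (0.90 ± 0.30). None of these lists had a member called lower. Cartilage markers had a median of 0.25, with 4 of 6 tested members above 0 in each library. Osteoblast markers had one of 0.33, but 0 of 6 were above 0 in each library and the E12.5 median was −0.04. Lists that are not mesenchymal had medians of like size, with 0.29 for endothelial markers (4 of 8 above 0 in each library) and 0.28 for epithelial ones (3 of 7). None of these 4 lists had a called member.

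Erythroid and neural progenitor lists had medians below 0. The erythroid list had a median of −0.63, with library medians of −0.63, −1.27 and −0.20. In each library 4 of 8 tested members were below 0 (20.9% of all genes were). Tal1, a factor of blood formation, was called lower (25.0, 24.0 and 22.0 CPM against 47.2, 58.8 and 37.0 CPM; −0.99 ± 0.28). Ackr1, the chemokine receptor of red cells, was the lowest of all called genes with a mean of −2.26 ± 1.20. Mt2, a metallothionein, and Cited4, a transcriptional coactivator, had −1.60 ± 0.71 and −1.51 ± 0.36, and others among the lowest were Lrit1, AI467606, Asb17, Trmt12, Msmb and Gnat2, with means of −1.79 to −1.26. Nuclei of like depth held 3, 34 and 2 nuclei of cluster 5, and their part in these values was not tested. Neural progenitor markers had a median of −0.45 and neuron markers one of −0.23, with 0 called in either list. The library medians differed in sign for neuron markers (−0.31, 0.04 and −0.24) and for inhibitory neuron markers (−0.60, 0.31 and 0.33). Pax6, a factor of neural progenitors, had log2 ratios of −1.12, −0.49 and −1.30.

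The other high genes of this comparison had low counts. Olfr1309, an olfactory receptor, had 13, 60 and 23 fragments against 2, 19 and 8 (2.05 ± 0.56). Its E12.5 ratio of 6.43 has a counting interval of 1.46 to 58.7. Olfr30 had 1.48 ± 0.96. Kcne4, encoding a subunit of potassium channels, had 11, 123 and 46 fragments against 2, 51 and 31 (1.52 ± 0.89), with an E12.5 ratio of 5.44 and a counting interval of 1.19 to 50.5. The remaining ones were 4933406M09Rik, Spesp1, Il5, Gpha2 and Gm12728, with means of 1.59, 1.53, 1.53, 1.52 and 1.45. Of these genes, Olfr1309, Olfr30, Il5 and Gm12728 passed the filter through cluster 3 alone, as Ackr1, Lrit1 and AI467606 among the lowest did through nuclei of like depth.

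Against cluster 1, 490 of 17302 genes (2.83%) were higher and 355 (2.05%) lower. When all fragments rather than those in genes set the scale, 208 were higher and 973 lower, and the same change turned 129 higher and 82 lower over nuclei of like depth into 45 and 211. That scaling shifted the log2 ratios by −0.19 over cluster 1 and by −0.125 over nuclei of like depth. Cluster 1 had only 344772 fragments in genes at E12.5, from 10 nuclei, and 428 tested genes had no fragment in some sum (11 in the comparison with nuclei of like depth), so single ratios of this stage are coarse. Of the highest 10 genes, Vmn2r66, Gip, Clec4b1 and Apol7e reached the mean of 20 fragments through their cluster 3 counts alone. Vmn2r66, a vomeronasal receptor, had 10, 53 and 42 fragments in cluster 3 and 1, 4 and 10 in cluster 1 (2.18 ± 1.09). Its E12.5 ratio of 1.94 has a counting interval of 0.276 to 84.1. Gip, encoding an intestinal hormone, had 20, 84 and 28 fragments against 1, 16 and 7 (2.04 ± 0.36), with an E12.5 ratio of 3.88 and a counting interval of 0.620 to 161. Slc26a5, encoding the motor protein prestin of outer hair cells, had 126, 231 and 116 against 1, 94 and 77, and its ratio of 24.4 at E12.5 (counting interval 4.30 to 972) stood beside log2 ratios of 0.64 and 1.02 at the other stages. Mndal, an interferon-inducible gene, had 38, 223 and 95 against 1, 47 and 35. The other 6 of the highest 10 were Clec4b1, Apol7e, Trcg1, Syt15, Clgn and Lctl, with means of 1.99 to 1.90 and 1 or 2 cluster 1 fragments at E12.5. A count of 0 was set at 3 counts while a count of 1 was kept. A gene with 1 cluster 1 fragment could therefore rank above one with 0.

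Among genes lower than in cluster 1, Cavin3, encoding a coat protein of caveolae, was the lowest, with 6.75, 9.01 and 10.3 CPM against 29.0, 27.01 and 34.2 CPM (−1.81 ± 0.27). Twist1, a mesenchyme factor, had 27.5, 32.3 and 24.5 CPM against 75.4, 49.4 and 55.7 CPM (−1.08 ± 0.43). Snai2, a factor of epithelial to mesenchymal transition, had −0.75 ± 0.04, and Mylpf, a myosin light chain of skeletal muscle, −0.85 ± 0.19. The other lowest genes were D630036H23Rik, Rpl39, Pou3f4, Ercc6l, Rbmx, Pars2, Sfr1, Arl14epl and Isca2, with means of −1.44 to −1.26. Of these, Rpl39, Pou3f4, Ercc6l and Rbmx lie on the X chromosome. There 26 of 537 tested genes were lower and 20 higher, beside 2.05 and 2.83% of all genes. Embryo sex was not determined in the study, and its part in these values was not tested.

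Of the 8 mesenchyme markers, 6 were below cluster 1 in each library (23.8% of all genes were) and the median was −0.42. Among mesenchyme transcription factors 14 of 30 were below 0 in each library and 2 above, with a median of −0.23. At promoters alone the median of this list was 0.03. Matrix genes had a median of −0.03 and signalling genes one of −0.11, with 0 called in either list, and at promoters alone the signalling median was 0.29. Runx2 had log2 ratios of −0.47, −0.36 and 0.03 over cluster 1, Twist2 0.58, −0.24 and −0.38, Prrx1 −0.24, −0.59 and −0.32, and Pdgfra −0.11, −0.14 and −0.43.

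The lists of the 12 other cell types had medians of the mean ratio above 0 over cluster 1 in the main setting. These medians ran from 0.05 for Schwann and neural crest markers to 0.46 for white blood cell markers, beside 0.02 for all genes. Not every alternative kept them above 0. Liver markers, for example, fell to −0.0337 when scaled by all fragments and neuron markers to −0.0049 when thinned to 10000 fragments. Without 1 library, inhibitory neuron, Schwann and neural crest, and muscle medians reached −0.22, −0.17 and −0.04. Only 5 of the 12 lists had a median above 0 in each library, those of neurons, endothelium, white blood cells, liver and epithelium. The other 7 were below 0 in at least 1 library, such as −0.37 for inhibitory neurons and −0.31 for Schwann and neural crest markers at E12.5. Among those called higher were Slc4a1, the anion exchanger of red cells (1.54 ± 0.93), and Csf1r, the macrophage growth factor receptor (1.53 ± 1.15). Slc4a1 and Csf1r had 2 cluster 1 fragments each at E12.5, which gave ratios of 5.62 (counting interval 1.49 to 47.5) and 7.27 (1.94 to 61.1). In cluster 3 their own levels were 32.6, 26.5 and 25.2 CPM and 42.2, 34.6 and 36.9 CPM.

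Vomeronasal receptor genes, summed over all members, took more of the cluster 3 fragments than of those in either other group. Few single receptors had enough fragments, as 81 of 328 vomeronasal and 84 of 1134 olfactory receptors could be tested against nuclei of like depth, and 61 and 44 against cluster 1. A receptor that passed through its cluster 3 counts had to be higher there, so no counts over those tested are given, and fragments were instead summed over every member of a family. The 328 vomeronasal receptors held 2116, 9796 and 4170 fragments in matched cluster 3 nuclei and 1565, 8105 and 2597 in nuclei of like depth, log2 ratios of 0.42, 0.44 and 0.79 (mean 0.55 ± 0.21). Over cluster 1 the ratios were 1.05, 0.76 and 0.98 (0.93 ± 0.15). The 1134 olfactory receptors stood at 0.06, 0.36 and 0.496 over nuclei of like depth (0.31 ± 0.22) and at 0.88, 0.68 and 0.85 over cluster 1 (0.81 ± 0.11). Scaled by all fragments, the first of these values was −0.03, while the other receptor ratios above stayed above 0.

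Further families that lie in arrays were summed in the same way. The 42 beta-defensins, antimicrobial peptides of epithelia, had a mean log2 ratio of 0.15 ± 0.08 over nuclei of like depth and 0.44 ± 0.35 over cluster 1. When all fragments set the scale, the beta-defensins lay below 0 at E13.5 and E15.5 over nuclei of like depth (−0.06 and −0.01) and at E12.5 over cluster 1 (−0.09). The 57 keratin-associated proteins of hair had 0.03, 0.41 and −0.19 over nuclei of like depth, so the stages differed in sign, and 0.66, 0.47 and 0.67 over cluster 1. The 35 bitter taste receptors held only 2 cluster 1 fragments at E12.5, and had −0.02, 0.33 and 0.86 over nuclei of like depth. Members of the receptor arrays resemble each other in sequence, reads can be split between copies, and values of single receptors are uncertain.

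Cytosolic ribosomal protein genes had negative medians over both groups, except at promoters alone over cluster 1. None of 77 was called against nuclei of like depth, where the median was −0.34 with library medians of −0.33, −0.37 and −0.29 and 44 were below 0 in each library (20.9% of all genes were). Over cluster 1 the median was −0.53, and 10 of 77 were called lower and 0 higher (2.05 and 2.83% of all genes were). Rpl39 was the lowest (7.31, 12.4 and 10.996 CPM against 29.0, 24.2 and 25.5 CPM; −1.39 ± 0.54), and Rps29, Rps3a1 and Rpl41 followed with −1.10 ± 0.52, −1.05 ± 0.33 and −0.999 ± 0.133. Scaled within promoters alone, the median was 0.0097 over cluster 1.

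**Figure D4:**
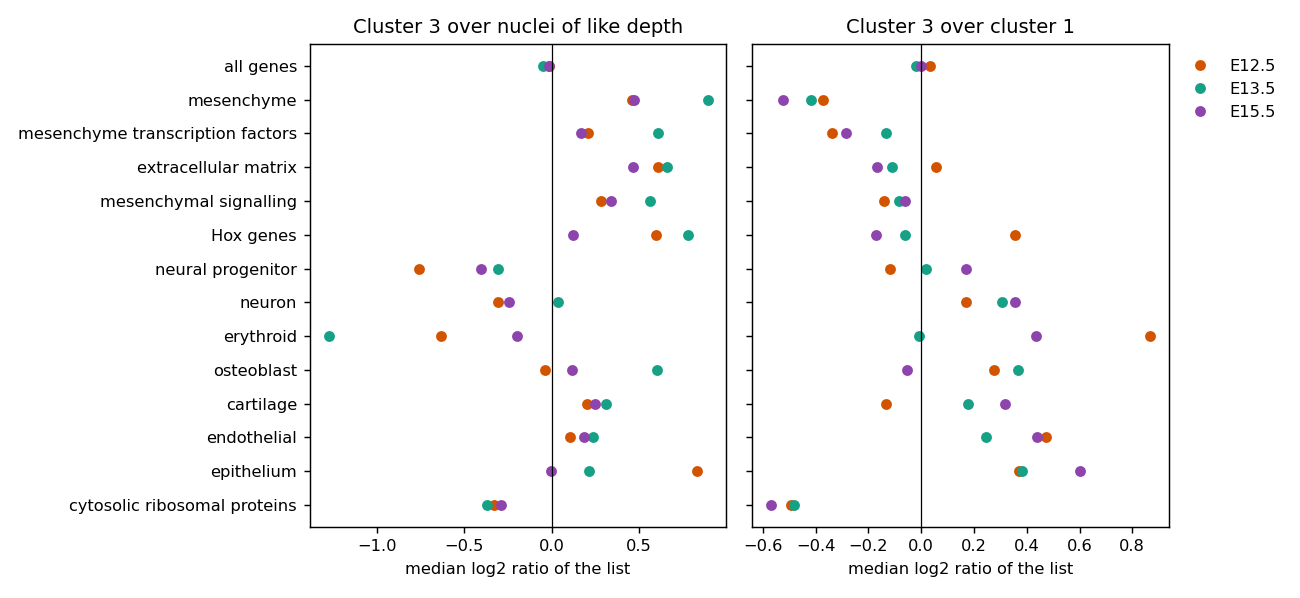
Each point is the median log2 ratio of a gene list in 1 library, for cluster 3 over nuclei of like depth (left) and over cluster 1 (right). The horizontal scales differ between panels. Mesenchyme markers stand at 0.46, 0.89 and 0.47 on the left and −0.37, −0.42 and −0.52 on the right, and ribosomal protein genes are below 0 in all 3 libraries of both panels.

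The promoters of the vomeronasal receptor Vmn2r66 and of the ribosomal protein gene Rps3a1, both called over cluster 1, are shown as the 150 bases before the start in RefSeq's annotation of GRCm38.p6 (mm10). They were chosen after the values were seen. In the GENCODE annotation used for the counts, Vmn2r66 starts at 85012268, so its printed stretch lies inside the counted gene.
Vmn2r66 promoter, chr7:85012021-85012170, minus strand: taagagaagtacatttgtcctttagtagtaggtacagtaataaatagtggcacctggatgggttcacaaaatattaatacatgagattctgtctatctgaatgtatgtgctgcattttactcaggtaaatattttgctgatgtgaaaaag
Rps3a1 promoter, chr3:86142669-86142818, minus strand: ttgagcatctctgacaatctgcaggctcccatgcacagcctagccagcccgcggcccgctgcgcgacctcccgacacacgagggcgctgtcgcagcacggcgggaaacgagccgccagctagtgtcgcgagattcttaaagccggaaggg
GC content was 33.3% in the first and 65.3% in the second. Over the 250 bases before the start, the median was 36.4% for 297 matched vomeronasal receptors, 33.6% for 931 olfactory receptors and 57.6% for 57 ribosomal protein genes, beside 56.0% for 16324 genes in all. The letters GGGCGG, on either strand, were in 0% of the vomeronasal, 0.644% of the olfactory and 45.6% of the ribosomal promoters, and in 44.3% of all.

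Open regions were taken as the 100000 autosomal 500 bp regions with the most insertions summed over both groups of a comparison. They held 14.7, 16.7 and 17.3% of insertions in matched cluster 3 nuclei and 18.8, 23.3 and 21.7% in nuclei of like depth. A region was called distal when it did not overlap a promoter window, which takes 1 start per gene and ends 100 bp downstream of it. Distal regions therefore include ones close to a start, such as those 351 bp from the Atad5 start and 1128 bp from the Inka1 start. Within the open regions, after scaling to them, 899 of 26293 distal regions were higher (3.42%) and 637 lower (2.42%). Of 18035 promoter regions 241 were higher (1.34%) and 300 lower (1.66%). Over cluster 1, where open regions held 14.2, 16.6 and 17.2% of cluster 3 insertions and 27.3, 28.3 and 32.04% of those in cluster 1, the same scaling to the open regions left 690 of 23233 distal regions higher (2.97%) and 536 lower (2.31%), and of 16540 promoter regions 205 higher (1.24%) and 322 lower (1.95%).

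The regions with the largest ratios rest on few insertions, so their counts are given without ratios. Over nuclei of like depth, the highest distal region lay at chr9:107984501-107985000 in an exon of Inka1, with 15, 68 and 29 insertions against 2, 53 and 1. An intergenic region at chr11:68600501-68601000, 13730 bp from Ccdc42, had 9, 82 and 36 against 1, 12 and 11. A region in an exon of Grin2d, a glutamate receptor gene, at chr7:45870001-45870500 had 18, 76 and 26 against 3, 12 and 8. The other high distal regions lay nearest to Rps24, Gas1 and Whrn, and the promoter ones at Olfml2a, Trnp1 and Calml4. Among the lowest was a region in an intron of Trim58, a ubiquitin ligase of maturing red cells, at chr11:58641501-58642000, with 2, 1 and 2 insertions against 12, 113 and 5. At E15.5 the counting interval of its ratio, 0.0476 to 3.05, includes 1. Regions at the start of Epb42, a red cell membrane protein, had 2, 3 and 2 against 7, 123 and 12, and 0, 2 and 0 against 7, 117 and 6. The others lay nearest to Pik3r1 and Dtwd2, and at the start of Cited4 with 2, 20 and 9 against 15, 157 and 43. The E13.5 nuclei of like depth, which had the most insertions in these regions, held 34 cluster 5 nuclei.

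Over cluster 1, the highest distal region was intergenic, at chr2:181918001-181918500 and 53914 bp from Polr3k, with 37, 136 and 61 insertions against 1, 38 and 12. Regions in introns of Aida and Kctd16 had 99, 366 and 113 against 2, 106 and 65, and 117, 434 and 114 against 2, 152 and 81. In both, the 10 cluster 1 nuclei of E12.5 gave 2 insertions. The others lay nearest to Apbb1ip, Atad5 and Vmn1r238, and the promoter ones at Sfi1, 4930404H24Rik and Rundc3a. The lowest were a distal region 38289 bp from Lgi2 with 7, 25 and 2 insertions against 21, 63 and 57, one in an annotated exon 4493 bp from the Kcne4 start with 1, 41 and 7 against 10, 60 and 62, and one in an intron of Cdon, a co-receptor of hedgehog signalling, with 1, 26 and 15 against 13, 57 and 55. The promoter region of Ppp1r8 had 8, 112 and 17 against 18, 185 and 141, and those of Bsx and Polr1b were also among the lowest.

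Motif letters were counted in these distal regions on both strands, beside all tested distal regions of the same comparison. GATA letters (GATAAG) were in 28.9% of regions lower than in nuclei of like depth, 9.68% of those higher and 10.96% of all. The E-box was in 35.04% of the higher, 36.3% of the lower and 29.1% of all, and TEAD letters in 8.57, 4.24 and 6.03%. Regions lower than in cluster 1 held the E-box in 43.8%, AP-1 letters in 19.8% and RUNX letters in 34.0%, beside 30.3, 10.7 and 25.4% of all. Those higher than in cluster 1 held these letters in 27.4, 7.25 and 23.6%. SP/KLF letters were in 38.0% of regions higher and 33.0% of those lower than in nuclei of like depth (46.9% of all), and in 46.8% of those higher and 28.7% of those lower than in cluster 1 (46.3% of all). Mean GC content was 50.8% in the regions lower than in cluster 1 and 56.9% in all, so composition moved with these counts.

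Cluster 3 nuclei spread their fragments less evenly over chromosomes than nuclei of like depth and cluster 1 did, though not the least evenly of all clusters. The SD over the 19 autosomes of the log2 share of fragments, relative to the library's median nucleus, had cluster 3 medians of 0.321, 0.366 and 0.348. Nuclei of like depth had 0.267, 0.275 and 0.312 and cluster 1 had 0.252, 0.265 and 0.297, while counting error alone would give about 0.0186 to 0.0317 at these depths. Cluster 5 stood higher than cluster 3 in each library, with 0.423, 0.374 and 0.421, and cluster 2 reached 2.41 at E13.5. The matched difference was 0.0816, 0.0915 and 0.0356. At least 1 autosome stood under 0.25 of the library's median share in 5 of 25, 21 of 133 and 7 of 50 cluster 3 nuclei, which was 33 of 208 (15.9%). Nuclei of like depth gave 1 of 22, 9 of 133 and 2 of 50, or 12 of 205 (5.85%), and cluster 1 gave 0 of 10, 1 of 125 and 7 of 120. In the most extreme cluster 3 nucleus 8 autosomes were that low. Leaving such nuclei out kept the sign of each difference in promoter share, closed bins and cluster 1 regions. Summed over nuclei, the spread between chromosomes was smaller, and at E13.5 their log2 ratios over nuclei of like depth ran from −0.11 to 0.13. At E12.5, with the fewest nuclei, they ran from −0.27 to 0.22 over nuclei of like depth and from −0.25 to 0.46 over cluster 1.

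**Figure D5:**
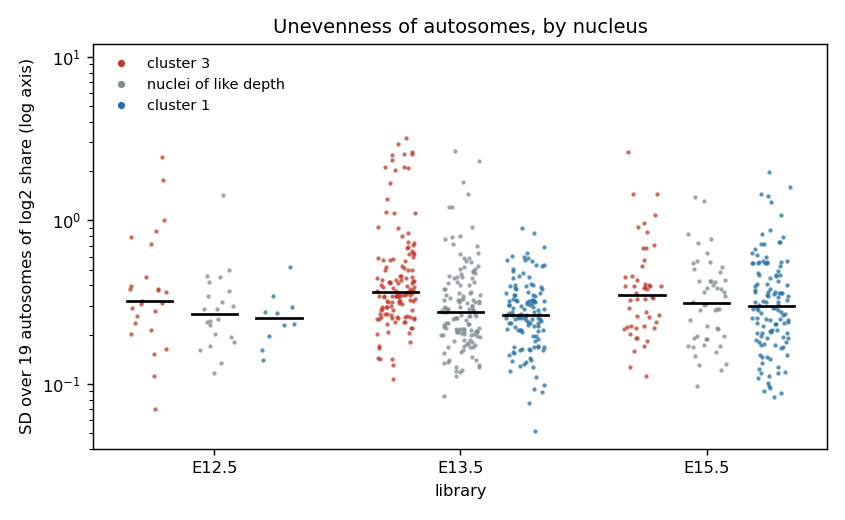
Each point is 1 nucleus, and the vertical axis, on a log scale, gives the SD over the 19 autosomes of its log2 fragment share. Colours are red for cluster 3, grey for nuclei of like depth and blue for cluster 1, with medians as black bars. Cluster 3 medians of 0.321, 0.366 and 0.348 are the highest of the 3 groups in each library, and its highest nucleus reaches 3.21.

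Within cluster 3 the nuclei varied widely. Promoter shares ran from 2.78 to 9.74% at E12.5, from 3.81 to 13.7% at E13.5 and from 3.93 to 14.7% at E15.5. Nuclei with a lower promoter share had more fragments in the least open bins, with Spearman's rho of −0.62, −0.59 and −0.49 over 25, 133 and 50 nuclei. Both shares have the fragment total of the nucleus in common, so these are descriptions. Promoter share and the share in cluster 1 regions had rho of 0.64, 0.09 and 0.21. Depth and promoter share had rho of −0.45, −0.05 and −0.11. Depth and unevenness of autosomes had −0.15, −0.55 and −0.54.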

How the data were processed

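Nuclei of 3 stages, in 1 library each, were profiled by snATAC-seq (10x Genomics). The authors mapped reads to mm10 with Cell Ranger ATAC 2.0.0, which shifts fragment ends for Tn5. The deposited fragment files give unique fragments with the count of supporting read pairs, and each fragment was counted once here. The deposited table gives counts of read pairs and fragments per nucleus and the cluster number of the authors, whose settings are not given in the sources used here. Of its columns, 11 were not used.

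Fragments were counted over 21602 protein-coding genes (GENCODE vM21), where Pcdh and Ugt clusters and spans over 500 kb were left out. Ratios were taken within a library on CPM with no pseudocount. A count of 0 was set at 3 counts, and where the other count was below that the log2 ratio was 0, a choice made after seeing the counts. Insertions (fragment ends) were counted in 500 bp regions. Python 3.11.15 with numpy 2.4.6, pandas 2.3.3, scipy 1.17.1 and matplotlib 3.10.9 was used. The scripts were tested on simulated data.

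Genes named are the 4 markers, the 10 highest and lowest called genes of each comparison (at most 3 of a receptor family), and of each list up to 4 called members or else the one with the largest CPM. Regions named are the 6 highest and 3 lowest distal and the 3 highest and lowest promoter ones, and windows the 5 highest and lowest. Members and lists were chosen with earlier results of these data known. Alternatives changed the scaling, window, filter, fold, weights, thinning, matching, bins, region sets and libraries. Added after seeing the data were pseudocounts, centring within chromosomes, 1 barcode per linked group, family sums over all members and leaving out nuclei that nearly lack an autosome. The choice of open regions on sums over libraries, the split of the least open bins, the measure of autosomes and the printed sequences were also chosen then. A few items are not reported here.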

Additional observations from a re-analysis of the deposited data

Results flagged for a closer look

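The values below had opposite signs between stages, and the difference between stages was not tested. Runx2 had log2 ratios over cluster 1 of −0.47, −0.36 and 0.03, from the youngest stage to the oldest, and Twist2 had 0.58, −0.24 and −0.38. Over cluster 1 the median of matrix genes was 0.06, −0.11 and −0.17, and that of Hox genes 0.36, −0.06 and −0.17, and the E12.5 values rest on 10 cluster 1 nuclei. The median of the 84 of 1134 olfactory receptors with enough fragments was −0.02, 0.26 and 0.43 over nuclei of like depth, and those that passed through cluster 3 alone had to be higher there.

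The share of nucleosome-free fragments in cluster 3 differed from nuclei of like depth by 0.703, 0.0519 and −0.39 percentage points and from cluster 1 by 1.01, −0.659 and −4.47. The mitochondrial share of read pairs differed from nuclei of like depth by 0.0381, −0.0997 and −0.127 points.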

How the results depend on the processing

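Differences in promoter share, TSS enrichment, least and most open bins and cluster 1 regions kept their sign under every alternative run for them. Counts of called genes moved by over 1.5 times under the following ones. Over nuclei of like depth, the higher and lower counts of 129 and 82 became 45 and 211 when scaled by all fragments, 205 and 126 with each nucleus at the same weight, 8 and 11 at a fold of at least 2, and 33 and 26 with a pseudocount of 5 CPM. The higher count was 279 without a filter, 53 thinned to 10000 fragments, 273 with all nuclei in the depth range and 223 without cluster 1 in the comparator, and the lower count 39 at promoters alone and 52 centred within chromosomes. Over cluster 1, the counts of 490 and 355 became 208 and 973 when scaled by all fragments, 89 and 30 at promoters alone, 58 and 4 at a fold of 2, 117 and 196 when thinned, and 227 and 198 with 5 CPM, and the lower count was 204 with median-of-ratios scaling and 197 when centred. Without 1 library, where fewer libraries must meet the rule, the counts were 331 to 495 and 208 to 401 over nuclei of like depth, and 934 to 1064 and 623 to 882 over cluster 1.

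A change of sign was looked for only in lists whose library medians shared a sign. Over cluster 1 it was seen at promoters alone for mesenchyme transcription factors (0.0264), signalling genes (0.292) and ribosomal protein genes (0.0097). It was also seen for liver markers when scaled by all fragments (−0.0337), neuron markers when thinned (−0.0049) and signalling genes when centred (0.003). Among lists with mixed signs, leaving out 1 library gave medians over cluster 1 on both sides of 0 for several. These included matrix genes (−0.12 to 0.02), Hox genes (−0.11 to 0.22), beta-defensins, and inhibitory neuron, muscle and Schwann markers. Bins ranked by GC gave −0.12 and −0.18 for the most open group over nuclei of like depth and cluster 1, and 0.47 for the least open over cluster 1, which was 0.81 with nucleosome-free fragments, and 50 kb bins gave −0.31 for the most open. With 200 regions, cluster 3 had 0.289% in cluster 1 regions, 0.149 points above nuclei of like depth and −0.220 from cluster 1, and with regions chosen in E15.5 it had 0.583% and −0.377 points. The causes were not tested. Thinned TSS enrichment was not run. All ratios compare groups within a library and are thus paired by library.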
